A study of Mus musculus with 6 samples.

Results

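Sox genes encode transcription factors that share an HMG box, a domain that binds the minor groove of DNA and bends it. In the developing nervous system 3 sets of them follow each other, and 10 of these genes are described here in cultured mouse neural cells treated with a short hairpin RNA (shRNA) against REST. The progenitor set was Sox1, Sox2 and Sox3, the neuronal set Sox4 and Sox11, and the glial set Sox5, Sox6, Sox8, Sox9 and Sox10. The members were taken by name as every probe set annotated to exactly 1 of these genes, the unit in which these arrays read a transcript through several short probes. This gave 37 of the 45037 probe sets tested, and 10 of 18193 genes, with 5 progenitor, 14 neuronal and 18 glial probe sets.

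RNA came from 6 samples of mouse NSP cells, a name that the labels do not spell out and that usually stands for neural stem and progenitor cells. Brains of embryos at day E12.5 were dissociated, and the cells were grown to confluence on PDL/Lam dishes, split and infected overnight with lentivirus. The virus expressed a control (CTL) shRNA in 3 samples and a REST shRNA in 3, and RNA was taken 6 days later, so that every sample had been infected. No mouse strain, hairpin sequence or selection of infected cells is given in the sources used here, and whether the samples of a group are separate cultures is not stated. REST is a zinc finger repressor that keeps neuronal genes low outside neurons, and the comparison asks which transcripts differ when it is targeted.

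In this lineage Sox1, Sox2 and Sox3 (SoxB1) maintain dividing progenitors and oppose differentiation. Sox4 and Sox11 (SoxC) act in committed precursors and young neurons, where they promote neuronal gene expression. Sox9 (SoxE) is needed for the switch from neuron to glia production, Sox8 and Sox10 (SoxE) for the oligodendrocyte lineage, in which Sox10 activates myelin genes, and Sox5 and Sox6 (SoxD) lack an activation domain and modulate SoxE activity.

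Promoters of the genes whose probe sets kept 1 direction in every pair of arrays (Sox11, Sox2 and Sox6), and of Sox4, the partner of Sox11, are shown because these are the members whose probe sets moved together, in 1 direction or in 1 pair. RefSeq (GRCm38.p6) gave a promoter for 7 of the 10 members, and the 250 bases before the annotated start are printed on the gene's strand, 5′ to 3′. Sox11 lies on the minus strand at chr12:27342719-27342968, Sox4 on the minus strand at chr13:28953700-28953949 and Sox2 on the plus strand at chr3:34649745-34649994. Sox6 has several starts, all on the minus strand, and the outermost window in the table (start a, chr7:116038745-116038994) and the next (start b, chr7:116031048-116031297) are given. Capitals mark CCAAT, a common promoter box, ACAATG or ACAAAG, 2 forms of the site that Sox proteins bind, and CAGCACC and GGACAG, the left and right parts of RE1, the DNA element bound by REST, each on either strand.
Sox11: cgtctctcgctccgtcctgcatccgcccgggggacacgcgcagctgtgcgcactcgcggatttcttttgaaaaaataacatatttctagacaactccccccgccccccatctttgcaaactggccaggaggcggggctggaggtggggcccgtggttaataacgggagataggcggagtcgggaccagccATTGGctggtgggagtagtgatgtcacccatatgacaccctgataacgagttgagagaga
Sox4: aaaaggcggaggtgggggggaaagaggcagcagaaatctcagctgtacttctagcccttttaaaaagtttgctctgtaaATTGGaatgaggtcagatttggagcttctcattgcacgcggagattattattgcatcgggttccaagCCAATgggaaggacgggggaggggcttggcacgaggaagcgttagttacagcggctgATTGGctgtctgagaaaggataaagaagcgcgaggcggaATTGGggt
Sox2: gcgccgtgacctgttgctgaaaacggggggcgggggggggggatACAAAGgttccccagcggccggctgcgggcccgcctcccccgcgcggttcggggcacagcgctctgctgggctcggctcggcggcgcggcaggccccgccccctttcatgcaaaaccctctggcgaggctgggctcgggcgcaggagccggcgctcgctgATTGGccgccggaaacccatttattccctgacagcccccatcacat
Sox6 start a: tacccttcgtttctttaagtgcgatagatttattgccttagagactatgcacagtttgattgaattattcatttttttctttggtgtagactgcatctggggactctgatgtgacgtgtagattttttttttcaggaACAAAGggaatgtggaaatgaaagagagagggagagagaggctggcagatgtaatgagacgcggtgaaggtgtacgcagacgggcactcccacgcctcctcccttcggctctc
Sox6 start b: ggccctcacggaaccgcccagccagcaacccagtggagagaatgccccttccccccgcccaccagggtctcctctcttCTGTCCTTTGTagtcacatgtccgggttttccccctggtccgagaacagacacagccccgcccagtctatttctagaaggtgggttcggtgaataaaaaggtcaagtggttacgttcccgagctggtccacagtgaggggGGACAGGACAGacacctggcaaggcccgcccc

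The windows of Sox11 and Sox4 held 1 and 4 copies of CCAAT, a motif found in 33.8% of all 32851 promoter windows of this length. The Sox2 window held 1 CCAAT and 1 Sox-type site, and a Sox-type site stood in 25.2% of all windows. Sox6 had 1 Sox-type site before each of the starts shown, and 3 copies of GGACAG before start b, where 2 of them overlap and the third runs into the Sox-type site. GGACAG was present in 18.7% and CAGCACC in 5.73% of all windows. Both parts on 1 strand with 2 bases between them, as in a full RE1, stood in 0.0335% of windows and in none of the member windows. A match is a description of letters, and RE1 elements often lie outside such windows.

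The hairpin's target read lower in every pair, a pair being the 2 arrays that share a replicate number. The 4 Rest probe sets read between 57.3% and 71.5% of control, with unadjusted p between 0.00175 and 0.0323 (limma, as all unadjusted p below) and adjusted p = 0.9998 for each. All 10 markers of neural progenitors and radial glia had a mean signal above the highest bacterial control of 3.24 (log2), the reference for background here. So did 13831 of all 18193 genes, and in the lists used below 15 of 15 neuronal, 14 of 14 astroglial and 13 of 15 oligodendrocyte genes. Of the lists for cells outside the neural lineage, 4 of 9 microglial, 1 of 7 endothelial and 5 of 8 mesenchymal markers did so. The microglial mean ran from 2.89 to 3.01 in the control arrays and from 2.96 to 3.27 with REST shRNA, and its Aif1 differed by 1.02 (unadjusted p = 0.0109) at a mean below background. The endothelial mean ran from 2.55 to 2.68 and from 2.60 to 2.88, the mesenchymal mean from 3.50 to 3.89 and from 3.36 to 3.92. Within the last list Acta2, smooth muscle actin, read 8.49, 8.40 and 4.07 in control and 3.55, 8.001 and 3.71 with REST shRNA, a difference of -1.90 ± 1.57 (SE, log2) that was -4.94 in pair 1. The part of these cells in the values below was not tested. REST shRNA array 2 was the lowest array for 20 of the 37 Sox probe sets, against 24.0% of all probe sets, so values without it are given below. This was not particular to the Sox genes. By gene, that array was also lowest for 11 of 14 in the astroglial list and 7 of the 10 progenitor and radial glia markers. It was lowest for 4 of 15 in the neuronal list and for 27.5% of all genes. On arrays of bulk RNA, fewer cells of a type and less RNA per cell cannot be told apart.

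No Sox probe set was called, and 0% of all probe sets were, by limma with Benjamini-Hochberg adjustment over all 45037 (adjusted p under 0.05). Every Sox probe set had an adjusted p of 0.9998. At an unadjusted p under 0.05, 0 Sox probe sets were higher, against 1.54% of all probe sets, and 1 was lower, against 1.93%. The 2 groups did not overlap for 3 Sox probe sets that were higher and 3 that were lower, where 4.35% and 3.90% of all probe sets did so, about 1 or 2 of 37 in each direction. Over the 3 pairs, 7 Sox probe sets were higher in every pair (12.2% of all probe sets were) and 6 lower in every pair (11.0%). These 7 were the 6 of Sox11 and 1 dim probe set of Sox9, and the 6 were the 4 of Sox6, the 1 of Sox2 and 1 of Sox5. Probe sets of 1 gene read the same RNA and are not independent.

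**Figure D1:**
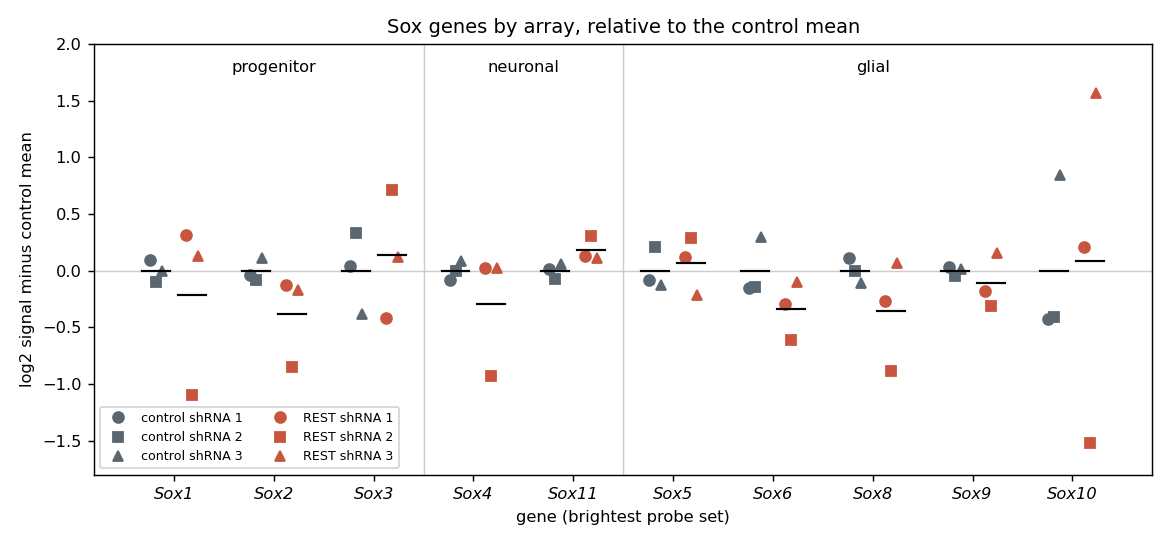
Log2 signal of the brightest probe set of each Sox gene in each array, minus the mean of the 3 control arrays for that probe set. Points are arrays, with a symbol for each replicate number and a colour for each group, and bars are group means. Sox11 is the gene whose REST shRNA arrays all sit above its control arrays and Sox2 the one whose arrays all sit below, while REST shRNA array 2 lies lowest for Sox1, Sox2, Sox4, Sox6, Sox8, Sox9 and Sox10.

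Among the progenitor factors Sox2 read lower with REST shRNA in every array, and Sox1 and Sox3 did not share that pattern. The single probe set of Sox2 (1416967_at) gave log2 signals of 10.79, 10.74 and 10.93 in control arrays 1, 2 and 3, and 10.70, 9.97 and 10.65 in REST shRNA arrays 1, 2 and 3. The groups did not overlap, and REST shRNA array 2 lay farthest below. The difference was -0.38 ± 0.23 (SE, log2), or 1.30-fold lower (95% CI of the log2 difference -0.92 to 0.16, unadjusted p = 0.140). It was -0.091, -0.77 and -0.28 in pairs 1, 2 and 3, and -0.15 without REST shRNA array 2. An exact two-sided permutation test gave p = 0.1 for Sox2, the smallest that 3 against 3 arrays allow. Any probe set whose groups do not overlap gets this value, so it adds nothing to that pattern.

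Sox1, which marks the early neural plate and dividing neural progenitors, has a bright and a dim probe set. The bright one (1438729_at) read 10.01, 9.82 and 9.91 in control and 10.23, 8.81 and 10.04 with REST shRNA. Only REST shRNA array 2 lay below the controls, and the other 2 REST shRNA arrays lay above them. The difference of -0.22 ± 0.37 (SE, log2) became 0.22 without that array. The dim probe set (1422205_at) had a mean of 3.22 in control and 3.24 with REST shRNA, at the level of the bacterial controls.

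Sox3, an X-linked SoxB1 gene, gave 7.35, 7.64 and 6.93 in control and 6.89, 8.02 and 7.43 with REST shRNA on its brighter probe set (1435192_at). Here REST shRNA array 2 was the highest of the 6 arrays and REST shRNA array 1 the lowest, whereas REST shRNA array 2 was the lowest for Sox1 and Sox2. The difference was 0.14 ± 0.32 (SE, log2, 95% CI -0.63 to 0.91), and the dimmer probe set (1450485_at) differed by -0.073 ± 0.15. The noncoding Sox2ot, whose gene contains Sox2, gave a difference of 0.35 ± 0.40, opposite in sign to Sox2.

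The neuronal SoxC genes gave different patterns. Sox11 read higher with REST shRNA on all 6 of its probe sets and in all 3 pairs, by 1.09-fold to 1.35-fold, while the brighter Sox4 probe sets read lower in pair 2 and near control or higher in pairs 1 and 3. A difference between the responses of Sox11 and Sox4 was not tested.

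The brightest Sox11 probe set (1431225_at) gave 11.10, 11.01 and 11.14 in control and 11.21, 11.39 and 11.20 with REST shRNA. All 3 REST shRNA arrays lay above all 3 controls, and here array 2 was the highest. The difference was 0.18 ± 0.15 (SE, log2, 95% CI -0.16 to 0.53, unadjusted p = 0.252). The probe set with the largest difference (1429051_s_at) gave 9.27, 9.41 and 9.59 in control and 9.62, 9.86 and 10.10 with REST shRNA, again without overlap. It differed by 0.44 ± 0.19 (SE, log2), with an unadjusted p of 0.0515, or 0.0475 when the fit included the replicate number as a block.

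The other 4 Sox11 probe sets differed by 0.13 (1453002_at), 0.15 (1453125_at), 0.25 (1436790_a_at) and 0.34 (1429372_at), with unadjusted p from 0.0883 to 0.404. In each of these the highest control array was above the lowest REST shRNA array. Across all 6 probe sets the difference ran from 0.12 to 0.35 in pair 1, from 0.039 to 0.49 in pair 2 and from 0.052 to 0.51 in pair 3. Leaving out any single array or pair left every Sox11 difference positive, between 0.078 and 0.56.

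Sox4 was read by 6 probe sets above background and by 2 (1443778_at and 1458332_x_at) that lay between 1.34 and 2.30 in every array, below the bacterial controls. The brightest (1433575_at) gave 11.25, 11.34 and 11.42 in control and 11.37, 10.41 and 11.36 with REST shRNA. Array 2 of the REST shRNA group was the only one of the 6 outside the control range. The difference was -0.29 ± 0.28 (SE, log2, 95% CI -0.95 to 0.37), and 0.024 without that array. On the 6 probe sets the difference in pair 2 ran from -1.03 to -0.81, against 0.037 to 0.44 in pair 1 and -0.066 to 0.73 in pair 3. The 6 probe sets thus gave nearly the same drop in pair 2. Probe set 1419157_at, which read 6.60, 6.35 and 6.47 in control and 7.04, 5.40 and 7.20 with REST shRNA, differed by 0.65 without REST shRNA array 2, against 0.072 with it.

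**Figure D2:**
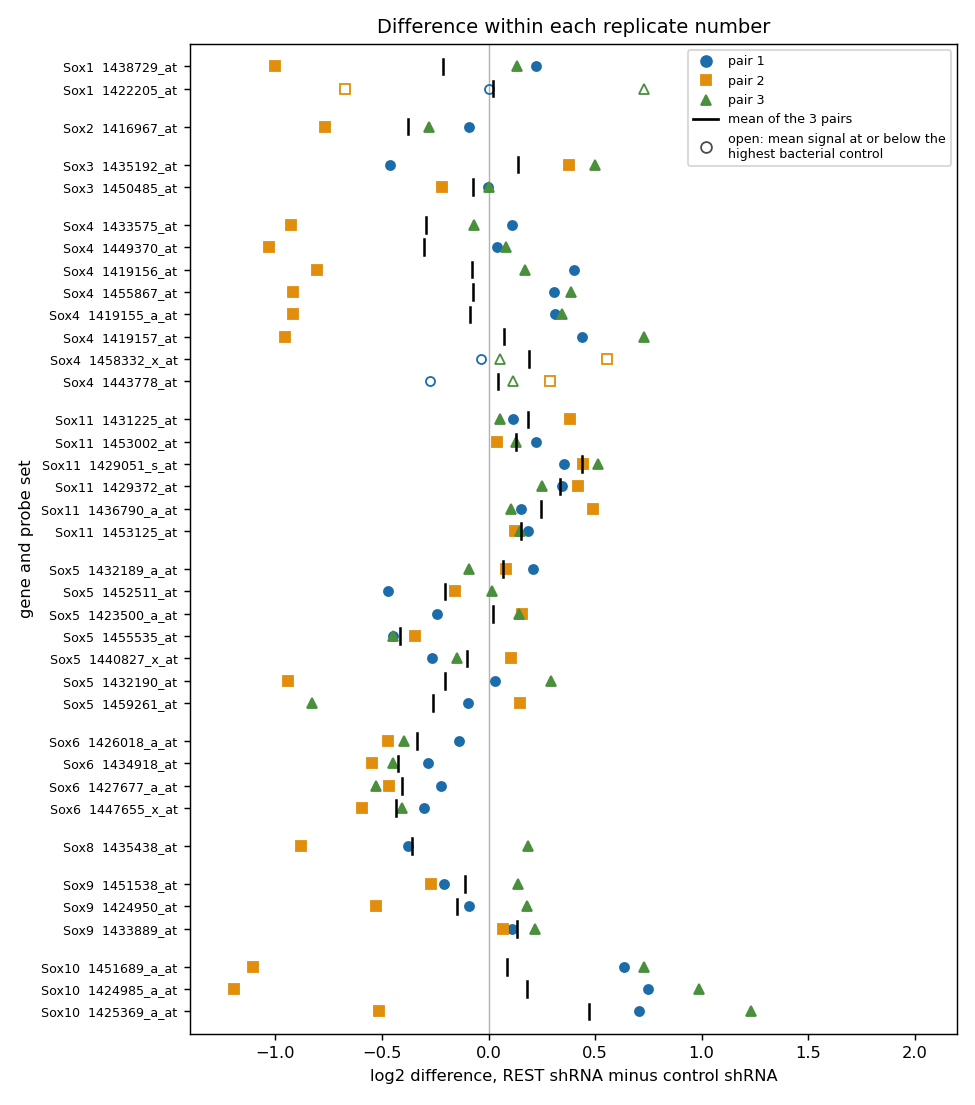
Log2 difference, REST shRNA minus control shRNA, of each of the 37 Sox probe sets in pairs 1, 2 and 3 (symbols) with the mean of the pairs (bar); open symbols mark probe sets whose mean signal is at or below the highest bacterial control. The Sox11 probe sets lie to the right of 0 and the Sox6 probe sets to the left in every pair, while the 6 brighter Sox4 probe sets and the 3 of Sox10 have pair 2 far to the left of pairs 1 and 3.

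Among the glial factors Sox6 read lower on all 4 probe sets and in all 3 pairs, by 1.26-fold to 1.35-fold. Probe set 1434918_at gave 9.06, 8.81 and 9.25 in control and 8.78, 8.26 and 8.80 with REST shRNA. The highest REST shRNA array lay just under the lowest control, so the groups did not overlap. The difference was -0.43 ± 0.21 (SE, log2, 95% CI -0.93 to 0.082, unadjusted p = 0.0876, or 0.0549 when the fit included the replicate number). It was -0.28, -0.55 and -0.45 in pairs 1, 2 and 3.

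The brightest Sox6 probe set (1426018_a_at) gave 8.95, 8.96 and 9.40 in control and 8.81, 8.49 and 9.01 with REST shRNA. REST shRNA array 3 overlapped the controls. The difference was -0.33 ± 0.21 (SE, log2), and the remaining probe sets differed by -0.40 ± 0.19 (1427677_a_at) and -0.43 ± 0.27 (1447655_x_at). In pair 1 the 4 differences lay between -0.30 and -0.14, in pair 2 between -0.59 and -0.47, and in pair 3 between -0.53 and -0.40. Without REST shRNA array 2 they lay between -0.27 and -0.19, and leaving out no single array or pair turned the sign of any of them.

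Sox5, the other SoxD gene, had 5 probe sets with a negative and 2 with a positive difference, with a median of -0.20. A difference from Sox6 was not tested. The brightest (1432189_a_at) gave 7.98, 8.28 and 7.95 in control and 8.19, 8.36 and 7.86 with REST shRNA, groups that overlapped widely, and differed by 0.067 ± 0.19 (SE, log2). Probe set 1455535_at gave 6.39, 6.12 and 6.16 in control and 5.94, 5.77 and 5.71 with REST shRNA, with no overlap. Its difference of -0.41 ± 0.16 (SE, log2, 95% CI -0.79 to -0.037) had the smallest unadjusted p of any Sox probe set, 0.0358, or 0.0550 when paired by number. The difference was nearly the same in the 3 pairs, at -0.45, -0.35 and -0.45. The other 5 differed by between -0.26 and 0.020, and which transcripts of Sox5 each probe set reads is not given in the sources used here.

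Sox9, which opens gliogenesis and persists in astrocytes, gave 10.90, 10.82 and 10.88 in control and 10.69, 10.55 and 11.02 with REST shRNA on its brightest probe set (1451538_at). The REST shRNA arrays lay on both sides of the controls, and the difference was -0.11 ± 0.17 (SE, log2, 95% CI -0.52 to 0.30). Probe set 1424950_at differed by -0.15 ± 0.18. Without REST shRNA array 2 these differences were -0.011 and -0.013. The dim 1433889_at read 3.25 to 3.37 in control and 3.40 to 3.48 with REST shRNA, without overlap, at signals just above the bacterial controls.

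Sox8, a SoxE gene of oligodendrocyte precursors that overlaps in function with Sox9 and Sox10, gave 11.64, 11.53 and 11.42 in control and 11.26, 10.65 and 11.60 with REST shRNA on its single probe set (1435438_at). It was lower in pairs 1 and 2, at -0.38 and -0.88, and higher in pair 3, at 0.18. The difference was -0.36 ± 0.26 (SE, log2, 95% CI -0.97 to 0.25, unadjusted p = 0.207), and -0.10 without REST shRNA array 2.

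Sox10 had the widest spread of the 10 genes, with an SD over the 6 arrays of 1.08 on its brightest probe set. That probe set (1451689_a_at) gave 8.22, 8.24 and 9.49 in control and 8.86, 7.14 and 10.22 with REST shRNA. Arrays numbered 3 were the highest of their group and REST shRNA array 2 was the lowest of all, so the spread within each group exceeded the difference between them. The difference was 0.087 ± 0.76 (SE, log2, 95% CI -1.72 to 1.90), an interval that holds changes of more than 2-fold both ways. It was 0.63, -1.10 and 0.73 in pairs 1, 2 and 3, and 0.89 without REST shRNA array 2 (unadjusted p = 0.149). The dimmer probe sets gave the same order of pairs, at 0.75, -1.20 and 0.99 for 1424985_a_at and 0.71, -0.52 and 1.23 for 1425369_a_at.

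By set, the median difference was -0.073 over the 5 progenitor, 0.10 over the 14 neuronal and -0.18 over the 18 glial probe sets, beside 0.014 over all probe sets. In pairs 1, 2 and 3 the progenitor median was -0.0022, -0.67 and 0.13, the neuronal median 0.21, 0.081 and 0.14, and the glial median -0.17, -0.47 and 0.078. The medians rest on unequal numbers of probe sets per gene: with 1 probe set per gene the progenitor, neuronal and glial medians were -0.22, -0.055 and -0.11. The progenitor median was -0.14 without dim probe sets and also without control array 3. Without REST shRNA array 2 the medians were -0.019, 0.19 and -0.070. The range within a set, from -0.43 for Sox6 to 0.47 for Sox10 among glial factors, was wider than the distance between the set medians.

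The genes whose signal followed a member most closely over the 6 arrays were named for the most variable member of each set, by Pearson's r on brightest probe sets among 13821 genes above background. For Sox10 they were Tspan18, Npdc1 and Mex3b (r = 0.999, 0.999 and 0.998), with r from 0.997 to 0.999 over the 5 arrays other than REST shRNA array 2. Tspan18, a tetraspanin, differed by 0.67, -0.96 and 0.69 in pairs 1, 2 and 3. For Sox4 they were Sparcl1, Sel1l and Scamp1 (r = 0.999, 0.998 and 0.996), and r was between 0.884 and 0.926 without REST shRNA array 2. For Sox1 they were 2810013P06Rik, Gm4285 and Shisa9 (r = 0.996, 0.995 and 0.994), and 0.918 to 0.975 without it. Each r describes 6 shared arrays and was chosen as the highest, so it carries no test.

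**Figure D3:**
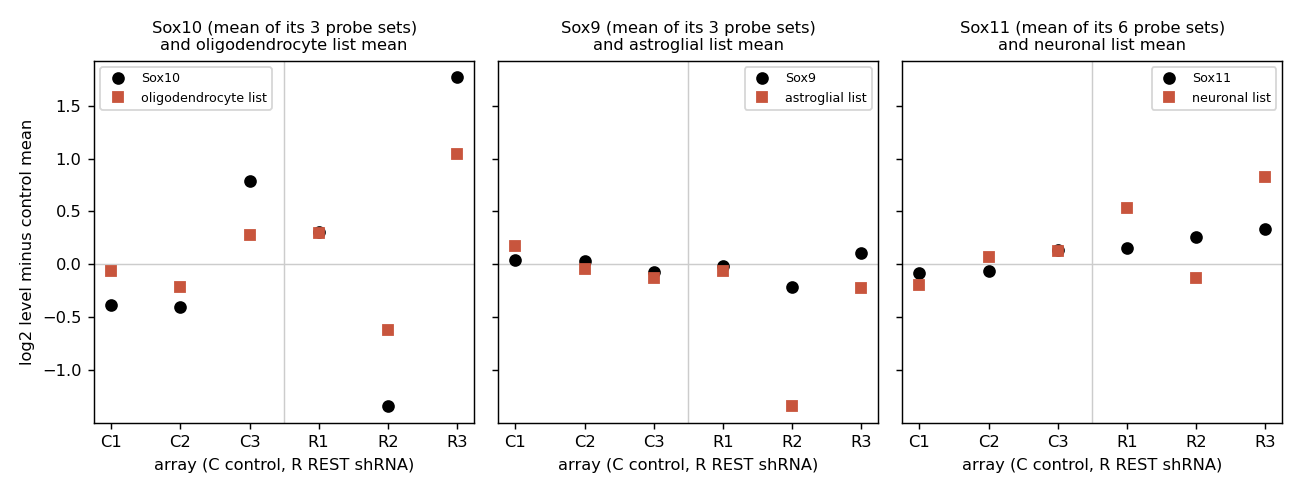
Log2 level of Sox10, Sox9 and Sox11 (mean of their probe sets, circles) and the mean of a list of genes around each (squares) in the 6 arrays, minus the control mean. The Sox9 mean includes the dim 1433889_at, which differed by 0.069 in pair 2. Sox10 and the oligodendrocyte list are both lowest in REST shRNA array 2 and highest in REST shRNA array 3, the astroglial list is far lower in REST shRNA array 2 than Sox9 is, and the Sox11 points stay above 0 in all 3 REST shRNA arrays while the neuronal list is below 0 in array 2.

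Genes around the SoxB1 factors were split. Of 19 measured partners and targets, 8 had a positive and 11 a negative difference, and the median was -0.019 beside 0.036 over all 18193 genes, of which 10411 were positive and 7782 negative. At an unadjusted p under 0.05, 1 was higher, against 1.69% of all genes, and 0 lower, against 1.04%. The 1 was Six3, a forebrain homeobox gene, which differed by 1.00 ± 0.36 (SE, log2), with most of it in pair 2 (0.49, 2.06 and 0.46). Its other probe sets differed by -0.19 and 0.17. Pou3f2, a POU factor that binds DNA beside Sox2 at the Nes enhancer, differed by -0.64 ± 0.32 (unadjusted p = 0.0912) and was lower in every pair, at -0.21, -1.39 and -0.31. Nes itself differed by 0.31 ± 0.83, with -0.44, 1.42 and -0.059 in pairs 1, 2 and 3. It was highest in REST shRNA array 2, where Sox2 and Pou3f2 were lowest. Fabp7, a lipid carrier typical of radial glia, differed by -0.40 ± 0.24, and Hes1, a Notch response gene, by 0.37 ± 0.26.

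In the list of SoxC targets and neuronal genes, 10 of 15 had a positive difference, as did 10411 of all 18193 genes, and the median was 0.36. Leaving out control array 1 or 3 gave a median of 0.22 or 0.19. Of the 15, 6 were higher in every pair, against 13.6% of all genes. At the unadjusted threshold 3 were higher, against 1.69% of all genes, and 0 lower, against 1.04%. These were Gap43, a growth cone protein, at 1.13 ± 0.30 (SE, log2), L1cam, an axonal adhesion molecule, at 1.55 ± 0.49, and Rbfox3, which encodes the neuronal antigen NeuN, at 0.92 ± 0.29. Each was higher in all 3 pairs. Tubb3, neuronal tubulin and a gene that Sox4 and Sox11 activate, differed by 0.44 ± 0.44, with 0.83, -0.66 and 1.15 in pairs 1, 2 and 3. Dcx, a further neuronal gene, differed by -0.20 ± 0.53. Neurog2, a proneural factor, differed by -0.87 ± 0.79, all of it in pair 2 (0.10, -3.05 and 0.35). The list mean by array was 7.63, 7.90 and 7.96 in control and 8.36, 7.70 and 8.66 with REST shRNA, so REST shRNA array 2 lay within the controls where Sox11 lay above them.

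The mean of a list of oligodendrocyte lineage and myelin genes was high and low in the same arrays as Sox10, but not every gene was. REST shRNA array 2 was the lowest array for 9 of 15, against 27.5% of all genes. Olig1 and Olig2, lineage factors of oligodendrocyte precursors, were instead highest there, at 11.56 and 10.52. Of 15 measured, 10 were positive, as were 10411 of all 18193 genes, with a median of 0.037. In the fit by group 0 were higher at the unadjusted threshold, against 1.69% of all genes, and 0 lower, against 1.04%. The list mean was 7.93, 7.78 and 8.28 in control and 8.30, 7.38 and 9.04 with REST shRNA. Mobp, a myelin protein, differed by 1.77 ± 1.01 (SE, log2) and was higher in every pair, at 2.31, 1.09 and 1.92. Pdgfra, a receptor of oligodendrocyte precursors, differed by -0.22 ± 0.22, with other probe sets at -0.075 and 0.034. Leaving out REST shRNA array 2 gave a list median of 0.46, and leaving out array 3 of that group gave -0.035. Neural crest and Schwann cells also express Sox10: of their 11 measured markers, 7 lay above background, with list means from 4.53 to 4.96 in control and from 4.67 to 5.16 with REST shRNA. Foxd3, Tfap2a, Tfap2b and Cdh19 had means below background. Ednrb and Egr2 were the brightest of the list, with means of 11.54 and 8.03. Egr2 read 6.66, 6.06 and 10.94 in control and 5.93, 8.05 and 10.56 with REST shRNA. Like Sox10 it was highest in array 3 of each group, but it was not lowest in REST shRNA array 2. Pou3f1 differed by 1.24 ± 0.76, with 0.051, 2.51 and 1.16 in pairs 1, 2 and 3, and with another probe set at 0.046. Mitf differed by -0.53 ± 0.29, with another probe set at -0.44. The part of such cells in the Sox10 values was not tested.

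The list of astroglial genes and SoxE targets, among them Nfia, a partner of Sox9, read lower. All 14 had a negative difference, where 7782 of all 18193 genes did, and their median was -0.41. That count rests on REST shRNA array 2: without it 10 were negative and 4 positive (Gfap, S100b, Slc1a3 and Mmd2). Gfap, the astrocyte intermediate filament, read 9.93, 8.85 and 10.72 in control and 11.11, 5.58 and 11.73 with REST shRNA. Its difference was thus 1.18 and 1.00 in pairs 1 and 3 and -3.27 in pair 2. Of the 14, 7 were lower in every pair, against 8.77% of all genes. At the unadjusted threshold 2 were lower, against 1.04% of all genes, and 0 higher: Slc1a2, the glutamate transporter of astrocytes, at -0.70 ± 0.20 (SE, log2), and Col2a1, a collagen gene that Sox9 activates together with Sox5 and Sox6 in cartilage, at -1.39 ± 0.41. Col2a1 was lower in every pair, at -0.88, -2.05 and -1.25. The list mean by array was 10.15, 9.93 and 9.84 in control and 9.91, 8.63 and 9.74 with REST shRNA, and the list median was -0.15 when REST shRNA array 2 was left out. In pair 2 the list mean differed by -1.30, and the brighter Sox9 probe sets by -0.27 (1451538_at) and -0.53 (1424950_at).

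**Figure D4:**
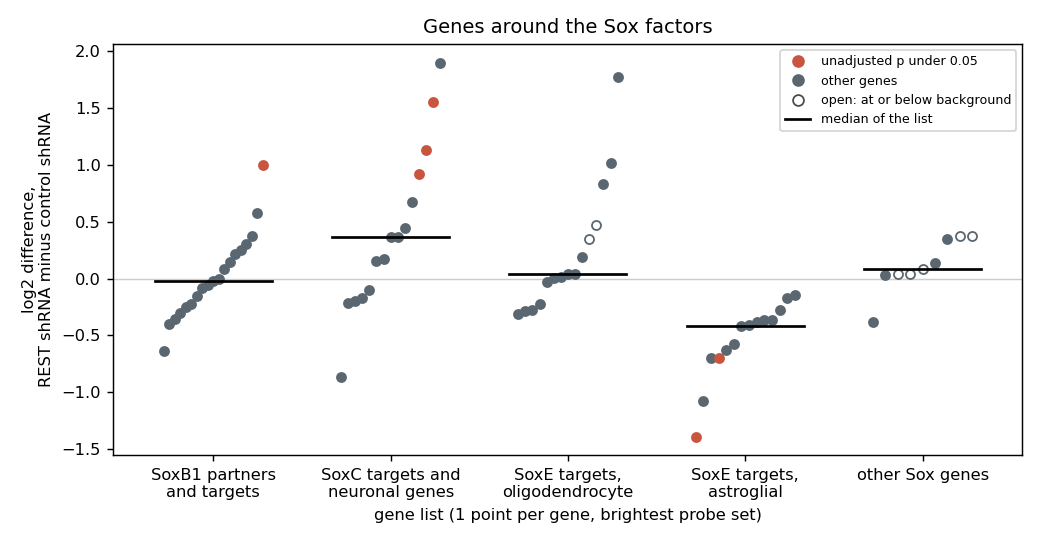
Log2 difference, REST shRNA minus control shRNA, of each gene in 5 lists around the Sox factors, 1 point per gene on its brightest probe set, with the list median as a bar, red for an unadjusted p under 0.05 and open for a mean at or below background. The genes of the astroglial list, which includes Col2a1, all lie below 0 (median -0.41). The neuronal list has a median of 0.36, and the SoxB1, oligodendrocyte and other Sox lists have medians of -0.019, 0.037 and 0.080.

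Of the 9 other Sox genes measured, 4 had a mean above background, and 8 had a positive difference, as did 10411 of all 18193 genes. Every one with a mean below background was among the positive. None was called at the unadjusted threshold: 0 were higher, against 1.69% of all genes, and 0 lower, against 1.04%. Sox21, a SoxB2 gene that counteracts SoxB1 activity, was the only negative one, at -0.38 ± 0.26 (SE, log2), with -0.18, -0.91 and -0.052 in pairs 1, 2 and 3. Sox17, an endoderm and endothelial gene, differed by 0.38 ± 0.16 (unadjusted p = 0.0530) at a mean of 3.02, below background. Sox12, the third SoxC gene, read 9.21 ± 0.22 (SD, n = 3) in control and differed by 0.029 ± 0.20.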

How the data were processed

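Expression was measured on 6 Affymetrix mouse arrays, 3 per group. The values are log2 signals per probe set, deposited by the authors; their scale was read from the range, 1.00 to 14.2. Background correction, probe summary and normalization are unstated here. Groups and replicate numbers come from the titles. The platform annotation, with symbols updated through RefSeq, gave 34958 probe sets 1 gene and 932 several, and did not list 9211. All 45037 probe sets other than 64 array controls were fitted by group with limma 3.58.1 in R 4.3.3 (lmFit, eBayes; residual df 4, prior df 2.90), with two-sided tests and Benjamini-Hochberg adjustment over all. The fit was first run on simulated data with independent noise in each array. These had no shared replicate numbers and no outlying array, so they differ from the present data there. In lists, a gene was read by its brightest probe set. Background is the maximum over 27 bacterial controls. The labels do not say that replicates are separate cultures, so p-values reflect only the spread of these samples, perhaps a technical one, and 3 arrays per group limit precision.

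The members and lists were chosen with earlier results of these data known. Every Sox probe set and, from other lists, the gene with the smallest p in each direction could be named. L1cam, Rbfox3, Col2a1, Tubb3, Dcx, Gfap, S100b, Slc1a3, Mmd2, Olig1, Olig2, Erbb3, Sox12, Sox2ot and 4 dim neural crest markers were added after their values were seen. So were Nes, Egr2 and Ednrb. Some listed genes are not reported here. Deviations from group means correlated at 0.108, 0.365 and 0.504 over genes between arrays of the same number in the titles, each above 0.1, so numbers were taken as pairs, although control array 1 correlated best with REST shRNA array 2. Alternatives were the replicate block, scalings, a filter on dim probe sets, variance models, array weights, other probe set choices and leaving out arrays.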

Additional observations from a re-analysis of the deposited data

How the results depend on the processing

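No Sox probe set was called under any of the 17 alternatives, where the smallest adjusted p was 0.801 by limma, and over all probe sets the count of calls was 0 in each as well. Of 37 Sox probe sets, 17 had the same sign in every alternative that included them, among them all of Sox11 and Sox6 and that of Sox2, and quantile normalization or centring arrays on their medians turned the sign of none. With the replicate number as a block (paired fit) 1 Sox probe set was higher and 0 lower at the unadjusted threshold, against 0 and 1 without it. It changed no adjusted call. In the lists the block put Mobp, Erbb3 and Pou3f1, and further neuronal and astroglial genes, under the unadjusted threshold, where the fit by group had not. The Sox counts at that threshold were 1 higher with median centring, 2 higher with array weights, 1 higher and 0 lower with an intensity trend, 0 lower with the filter on dim probe sets and 0 lower with 1 probe set per gene. With arrays left out, singly or by number, they ran from 0 to 2 higher and 0 to 1 lower. The probe sets whose groups did not overlap numbered 1 higher and 1 lower with 1 probe set per gene, and from 3 to 7 higher and 3 to 9 lower with arrays left out, when fewer arrays make overlap rarer. No share over all probe sets is given for these alternatives, so the counts cannot be read as a result about the Sox genes. The neuronal median was -0.055 with 1 probe set per gene and 0.18 with array weights, and ran from 0.069 to 0.19 with arrays left out. The -0.055 is the median of only 2 probe sets, Sox4 1433575_at at -0.29 and Sox11 1431225_at at 0.18. The cause of the other shifts was not tested.

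With arrays left out, the differences that turned sign ran from -0.34 to 0.36 (Sox1 1422205_at), -0.48 to 0.22 (Sox1 1438729_at), -0.15 to 0.44 (Sox3 1435192_at), -0.65 to 1.05 (Sox10 1424985_a_at), -0.23 to 1.17 (Sox10 1425369_a_at) and -0.66 to 0.89 (Sox10 1451689_a_at). For Sox4 they ran from -0.39 to 0.33 (1419155_a_at), -0.33 to 0.29 (1419156_at), -0.26 to 0.65 (1419157_at), -0.50 to 0.024 (1433575_at), -0.22 to 0.21 (1443778_at), -0.56 to 0.060 (1449370_at), -0.42 to 0.35 (1455867_at) and -0.054 to 0.33 (1458332_x_at). For Sox5 they ran from -0.049 to 0.15 (1423500_a_at), -0.044 to 0.21 (1432189_a_at), -0.49 to 0.16 (1432190_at), -0.21 to 0.0045 (1440827_x_at) and -0.46 to 0.026 (1459261_at), and for Sox9 1424950_at from -0.31 to 0.045. Array weights also turned Sox1 1438729_at (0.0045), Sox3 1435192_at (-0.15), Sox5 1423500_a_at (-0.056) and Sox4 1419155_a_at (0.14), 1419156_at (0.19), 1455867_at (0.18) and 1443778_at (-0.15). Probe sets near the bacterial control signal hold little information on a difference.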
